A study of Mus musculus with 18 samples.

Results

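The m6A reader genes examined here are Ythdf1, Ythdf2, Ythdf3, Ythdc1, Ythdc2, Igf2bp1, Igf2bp2, Igf2bp3, Hnrnpa2b1 and Prrc2a. They were listed by name, with earlier results of these data known, and each symbol was matched to 1 Ensembl gene identifier, giving 10 of the 55153 genes in the RNA-seq tables. All 10 had a value in each of the 18 libraries and passed the filter on low counts in every comparison. The libraries were made from cerebral cortices of embryonic day 15.5 (E15.5) mice, labelled C57BL/6, in 3 groups with 3 RNA-seq and 3 ribosome profiling (Ribo-seq) libraries each. Ctrl was labelled wild type, F-cKO carried Fto(f/f, Emx1-cre), and M-cKO carried Mettl3(f/f, Emx1-cre). The paper's methods describe floxed lines on a C57BL/6 background mixed with another strain, bred with C57BL/6 Emx1-Cre mice. Strain differences between the groups were not tested. Fto removes m6A from RNA and Mettl3 is the catalytic subunit of the methyltransferase. Cre under the Emx1 promoter acts in cortical progenitors and the excitatory neurons they produce, so interneurons that migrate in, vessels, meninges and microglia keep intact alleles in a whole cortex. How many embryos made up a library, and whether the libraries of a group shared a litter, is not clear from the sources used here, although the Ribo-seq methods can be read as taking the samples from a single litter, and the same 3 Ctrl libraries of an assay serve both knockouts.

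N6-methyladenosine (m6A) is a methyl mark on adenosines of mRNA, and readers are the proteins that bind it or the RNA around it. The YTH domain of Ythdf and Ythdc proteins holds the methylated base in an aromatic pocket. Ythdf proteins act in the cytoplasm, where they are best known for recruiting deadenylation and decay factors and have also been tied to translation, whereas Ythdc1 acts in the nucleus in splicing and export. The Igf2bp proteins bind RNA through KH domains, protect bound mRNAs from decay, and are known as fetal proteins that mark young neural progenitors.

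A library held 18504094 to 22592406 counted reads in RNA-seq and between 10973699 and 35853227 in Ribo-seq. Fto RNA was 10.8, 11.2 and 8.37 FPKM (fragments per kilobase, scaled to library size) in Ctrl replicates 1, 2 and 3, and 3.26, 7.56 and 2.43 in F-cKO, so that F-cKO replicate 2 kept the most Fto RNA of its group. Fto footprints, in RPKM (reads per kilobase, scaled to library size), were 25.9, 22.0 and 17.6 in Ctrl and 3.91, 2.11 and 4.04 in F-cKO. Mettl3 RNA was 5.84, 6.43 and 5.07 FPKM in Ctrl and 8.61, 7.82 and 8.34 in M-cKO, while its footprints were 9.16, 9.25 and 9.93 RPKM in Ctrl and 6.78, 6.02 and 6.40 in M-cKO. The M-cKO allele lacks exons 2 and 3, so counts over the whole Mettl3 gene do not check the deletion. All 9 markers of the cortical excitatory lineage were detected in both assays, and their summed RNA level was 853 to 931 FPKM in Ctrl, 993 to 1048 for F-cKO and 1139 to 1155 for M-cKO, while their summed footprints overlapped, at 877 to 987 RPKM in Ctrl, 635 to 930 for F-cKO and 831 to 1029 for M-cKO. The 6 ganglionic eminence markers summed to 79.0 to 80.4 FPKM in Ctrl, 77.0 to 106 for F-cKO and 113 to 153 for M-cKO, and to 32.1 to 47.1 RPKM in Ctrl against 51.6 to 108 in M-cKO. The 7 meninges and fibroblast markers summed to 12.5 to 23.3 FPKM in Ctrl, 3.28 to 10.2 for F-cKO and 6.39 to 31.6 for M-cKO, and to 13.7 to 26.3 RPKM in Ctrl, 8.72 to 47.3 for F-cKO and 2.99 to 16.9 for M-cKO. Ctrl libraries also differed among themselves, with 70.0, 806 and 317 FPKM over the 5 choroid plexus markers in RNA and 456, 1969 and 580 RPKM in Ribo-seq (where Kcnj13 was not listed), and 486, 879 and 475 FPKM over the 8 erythroid markers. Embryonic globin Hbb-y, 1 of the erythroid markers, was called higher in RNA of F-cKO (4.90 ± 1.06, log2, SE) and M-cKO (3.26 ± 0.74) and in Ribo-seq of M-cKO (3.52 ± 0.47), and adult Hbb-bs lower in RNA of F-cKO (-0.71 ± 0.18). In Ribo-seq, F-cKO replicate 2 differed, with 83.3 RPKM over the 5 endothelium markers against 4.09 to 8.38 in the other libraries. All genes of the cortical, ganglionic eminence, meninges and endothelium lists were detected in both assays. The test used below called 6 of 6 ganglionic eminence markers higher in RNA and 3 of 6 in Ribo-seq of M-cKO, 3 of 6 higher in RNA of F-cKO, 5 of 9 cortical excitatory markers higher in RNA of M-cKO and 4 of 9 in F-cKO, and 4 of 7 meninges markers lower in RNA of F-cKO. Over all genes tested, 15.5% rose in RNA of M-cKO, 11.5% rose and 9.57% fell in RNA of F-cKO, and 7.13% rose in Ribo-seq of M-cKO. Of 3 thalamus markers tested, 1 (Lhx9) was called higher in RNA of both knockouts and in Ribo-seq of M-cKO. The part of these cell types in the results below was not tested. In bulk cortex fewer cells of a type and less RNA per cell cannot be told apart.

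In Ctrl RNA-seq the readers spanned a wide range of levels. Hnrnpa2b1, a nuclear hnRNP of pre-mRNA processing, had the highest level at 229 ± 3.27 FPKM (SD, n = 3), above 99.0% of the 13574 genes with at least 1 FPKM. Prrc2a, a large cytoplasmic protein first described as a reader in oligodendrocyte precursors, followed at 94.1 ± 6.00 FPKM. The 3 Ythdf genes lay close together, with 21.9 ± 1.94 FPKM for Ythdf1, 21.2 ± 1.37 for Ythdf2 and 19.1 ± 1.15 for Ythdf3, and neighbours in this order overlapped between libraries. Ythdc1 had 9.11 ± 0.08 FPKM. The 4 lowest readers were Igf2bp1 (5.39 ± 1.07 FPKM), Igf2bp2 (4.99 ± 0.94), Ythdc2 (3.13 ± 0.20) and Igf2bp3 (3.04 ± 0.30). Igf2bp1 and Igf2bp2 did not differ beyond their spread, and neither did Ythdc2 and Igf2bp3.

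**Figure D1:**
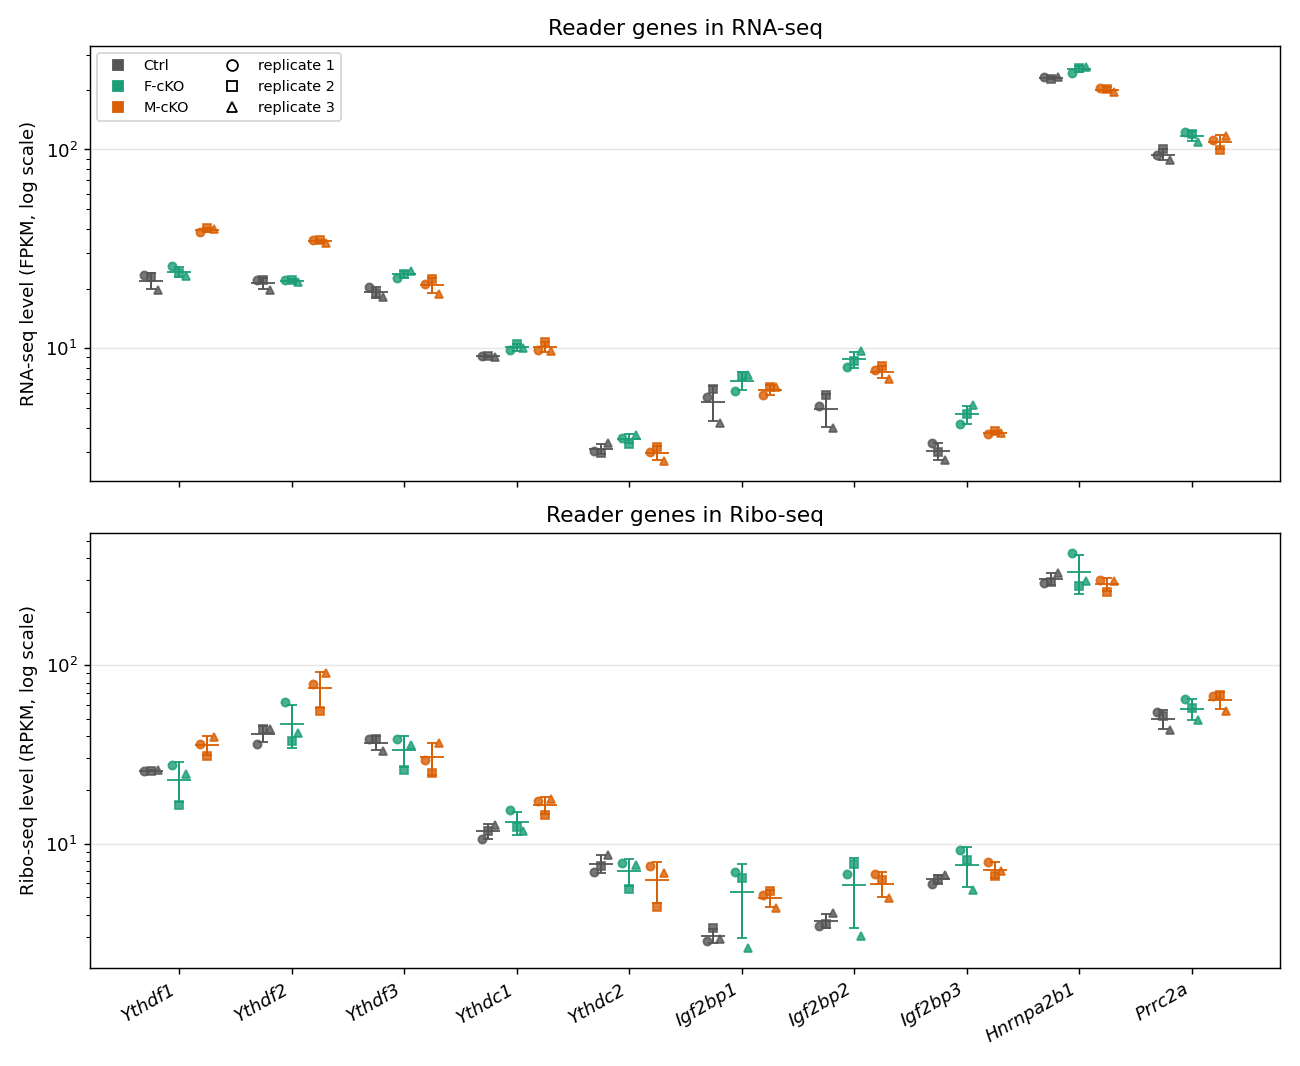
Level of each reader gene in every library, RNA-seq in FPKM above and Ribo-seq in RPKM below, both on log axes, with Ctrl in grey, F-cKO in green and M-cKO in orange. Symbols mark replicates 1 to 3 and bars give the mean and SD (n = 3). Ythdf1 and Ythdf2 RNA in M-cKO lies between 34.0 and 40.4 FPKM, above all Ctrl and F-cKO libraries, and Igf2bp1 and Igf2bp2 footprints in F-cKO replicate 3 lie below all Ctrl libraries.

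The order in Ctrl Ribo-seq was not the same. Hnrnpa2b1 was again highest at 305 ± 22.1 RPKM (SD, n = 3) and Prrc2a second at 50.0 ± 6.05 RPKM, overlapping Ythdf2 (41.4 ± 4.49). Ythdf2 and Ythdf3 (36.8 ± 3.28 RPKM) overlapped, and both lay above Ythdf1 (25.7 ± 0.04) in every Ctrl library. Igf2bp3, the lowest reader in RNA, had 6.30 ± 0.40 RPKM and exceeded Igf2bp2 (3.69 ± 0.32) and Igf2bp1 (3.03 ± 0.28) without overlap. Ythdc2, a helicase with a YTH domain, had 7.71 ± 0.89 RPKM.

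Dividing the mean RPKM of footprints by the mean FPKM of RNA gives the level of translational efficiency (TE), which separated the readers in Ctrl. It was highest for Ythdc2 (2.47), Igf2bp3 (2.07), Ythdf2 (1.95) and Ythdf3 (1.93), against a median of 0.859 over 11739 genes. It was lowest for Prrc2a (0.531), Igf2bp1 (0.563) and Igf2bp2 (0.741). These ratios carry no test. The lengths implied by the RPKM, 11394 bases for Ythdc1 and 2768 for Ythdf1, were smaller than those implied by the FPKM, 13798 and 3352, by a like factor, so the same gene lengths appear to lie behind both, and a ratio also depends on how much of the transcript is coding.

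Across the comparisons with Ctrl, the readers that moved were mostly higher in the knockouts. In RNA-seq of F-cKO cortices, 4 of 10 readers rose (Ythdf3, Igf2bp2, Igf2bp3 and Prrc2a; edgeR's quasi-likelihood test with Benjamini-Hochberg adjustment over all genes, adjusted p below 0.05), where 11.5% of all 16944 genes rose and 9.57% fell. All 10 estimates were above 0, with a median log2 fold change of 0.23 against -0.01 over all genes. Without Ctrl replicate 3, the lowest RNA-seq library for most readers, 2 readers and 1543 genes in all were called, against 3576 genes in the full fit. In RNA-seq of M-cKO cortices, 4 of 10 rose (Ythdf1, Ythdf2, Igf2bp2 and Igf2bp3) and 1 fell (Hnrnpa2b1), where 15.5% of 16968 genes rose and 14.1% fell. In Ribo-seq of M-cKO cortices, 5 of 10 rose (Ythdf2, Igf2bp1, Ythdf1, Ythdc1 and Igf2bp2), where 7.13% of 14314 genes rose and 7.5% fell. The 5 Ribo-seq calls depended on every Ctrl library: 0 of the 10 readers were called when Ctrl replicate 1, 2 or 3 was left out, 1 (Igf2bp1) without M-cKO replicate 1, and 0 when the F-cKO libraries shared the fit, although the 5 estimates kept their direction. Without a Ctrl library the estimates were about as large, for example 0.77 to 0.92 for Ythdf2 and 0.69 to 0.80 for Igf2bp1, while the calls over all genes dropped from 2093 to between 177 and 461. Groups that do not overlap are common here: they made up 41.6% of all genes tested in RNA-seq of F-cKO against Ctrl, 44.9% of M-cKO against Ctrl and 43.7% of M-cKO against F-cKO, and 39.4% in Ribo-seq of M-cKO against Ctrl. In Ribo-seq of F-cKO cortices edgeR called 0 readers and 0% of 14335 genes higher or lower, with 0 readers at an unadjusted p under 0.05 and 0 by DESeq2. Leaving out F-cKO replicate 2 gave 0 readers and 1 gene in all, and leaving out any other of the 6 libraries gave 0 of both. In that comparison Fto itself, at a log2 fold change of -2.67 ± 0.25 (SE), had an adjusted p of 0.35 in edgeR.

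**Figure D2:**
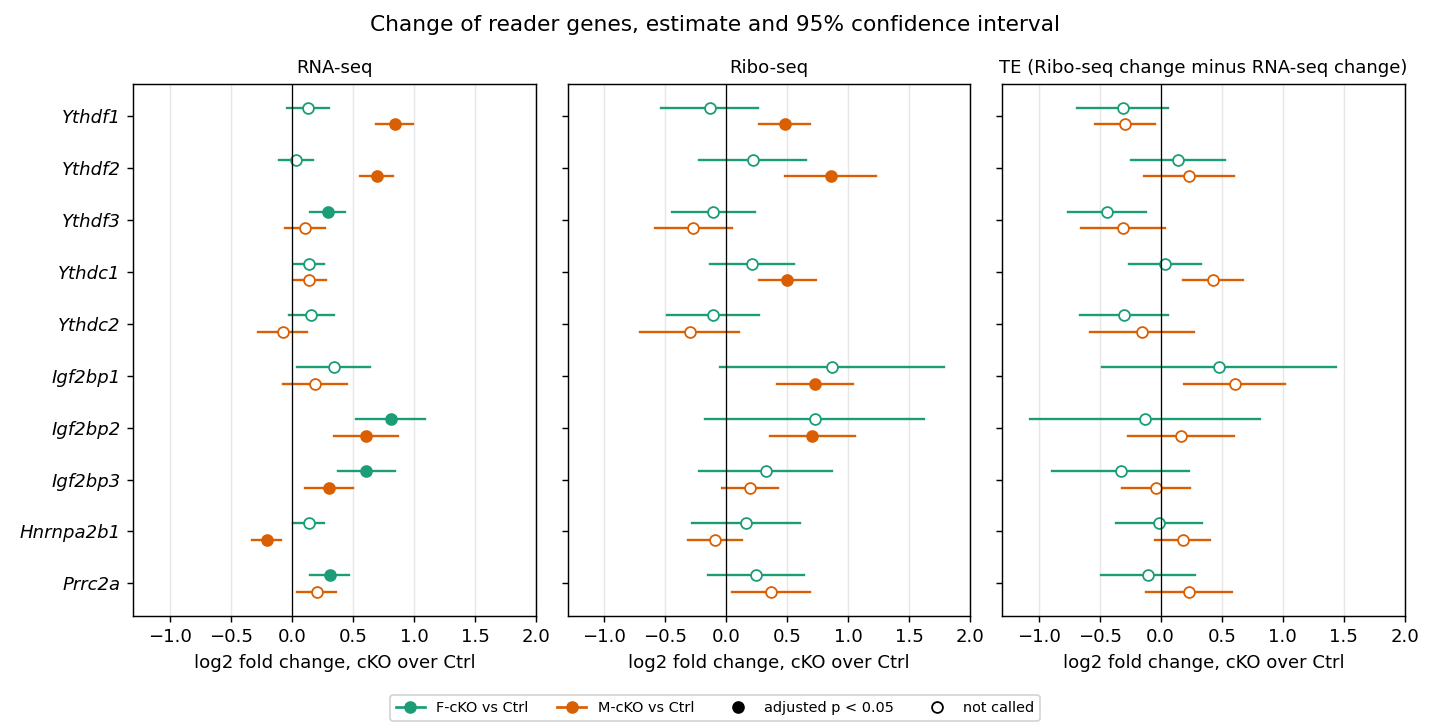
log2 fold change of each reader in F-cKO (green) and M-cKO (orange) over Ctrl, in RNA-seq, Ribo-seq and TE. Points are edgeR estimates, lines are 95% confidence intervals, and filled points have an adjusted p below 0.05. Filled points to the right of 0 include Ythdf1 and Ythdf2 in M-cKO in the RNA-seq and Ribo-seq panels, and the longest lines are those of Igf2bp1 and Igf2bp2 in F-cKO Ribo-seq and TE.

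The largest RNA change of a reader in M-cKO was that of Ythdf1, on chromosome 2 (GRCm38, chr2:180904377-180920936). Its level was 23.3, 22.7 and 19.7 FPKM in Ctrl replicates 1, 2 and 3, compared with 38.6, 40.4 and 39.7 for M-cKO and 25.9, 23.9 and 23.0 for F-cKO. All M-cKO libraries lay far above the other 6. The log2 fold change was 0.84 ± 0.07 (SE, edgeR adjusted p = 2.78e-05), a 1.79-fold rise, and leaving out any 1 library moved it only between 0.78 and 0.89. In F-cKO the estimate was 0.13, with a 95% interval of -0.04 to 0.31. Footprints were 25.6, 25.7 and 25.7 RPKM in Ctrl and 36.3, 30.9 and 39.5 in M-cKO, a log2 rise of 0.48 ± 0.09 (SE, edgeR adjusted p = 0.0191). All 3 M-cKO libraries exceeded all Ctrl libraries, and M-cKO replicate 2 was the lowest of its group. In F-cKO the footprints were 27.7, 16.5 and 24.4 RPKM, with replicate 2 apart from the rest.

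Ythdf2, the paralog best known for recruiting the Ccr4-Not deadenylase, lies on chromosome 4 (chr4:132184916-132212256). Its RNA level was 22.0, 22.1 and 19.7 FPKM in Ctrl, 34.9, 34.9 and 34.0 for M-cKO, and 22.0, 22.1 and 21.6 for F-cKO. The F-cKO libraries overlapped Ctrl, whereas the M-cKO libraries lay above it. The log2 fold change in M-cKO was 0.69 ± 0.06 (SE, edgeR adjusted p = 3.99e-05). Footprints were 36.2, 44.1 and 43.9 RPKM in Ctrl and 78.5, 55.7 and 90.0 in M-cKO, a log2 rise of 0.86 ± 0.16 (SE, edgeR adjusted p = 0.0184). The M-cKO libraries again exceeded all Ctrl libraries, with replicate 2 nearest to them. In F-cKO footprints were 61.9, 37.6 and 41.9 RPKM, with replicate 1 high, and the estimate of 0.22 had a 95% interval of -0.22 to 0.66.

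Because Ythdf1 and Ythdf2 rose together in M-cKO, and Igf2bp2 rose in RNA of both knockouts, the 250 bases upstream of their RefSeq starts are shown for comparison (RefSeq, GRCm38.p6, minus strand of the chromosome, written 5′ to 3′ along the gene). They are Ythdf1 at chr2:180920937-180921186, Ythdf2 at chr4:132212257-132212506 and Igf2bp2 at chr16:22163300-22163549. Capitals mark matches to any of the motifs searched on either strand: the E-box CACGTG, the cyclic AMP response element TGACGTCA and its shorter core TGACG (contained in the former), the CCAAT box, the GC box GGGCGG, the Ets motif CCGGAAG, the TATA box TATAAA and the NRF1 palindrome.
Ythdf1: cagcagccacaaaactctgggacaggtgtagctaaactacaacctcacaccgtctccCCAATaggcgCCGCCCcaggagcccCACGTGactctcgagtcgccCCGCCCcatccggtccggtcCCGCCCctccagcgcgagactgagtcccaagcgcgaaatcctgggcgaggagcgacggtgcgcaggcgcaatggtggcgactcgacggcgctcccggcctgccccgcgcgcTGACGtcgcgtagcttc
Ythdf2: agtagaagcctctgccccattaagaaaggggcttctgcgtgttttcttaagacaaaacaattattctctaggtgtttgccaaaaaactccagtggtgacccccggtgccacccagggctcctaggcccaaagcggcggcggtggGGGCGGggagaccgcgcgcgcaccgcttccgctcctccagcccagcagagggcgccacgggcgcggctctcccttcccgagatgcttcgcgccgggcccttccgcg
Igf2bp2: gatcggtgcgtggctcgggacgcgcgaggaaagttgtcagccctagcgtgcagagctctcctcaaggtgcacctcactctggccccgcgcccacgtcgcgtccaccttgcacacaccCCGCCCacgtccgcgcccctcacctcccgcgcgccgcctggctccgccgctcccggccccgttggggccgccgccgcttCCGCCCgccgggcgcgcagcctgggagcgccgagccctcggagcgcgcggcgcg
The Ythdf1 window held the E-box at -168, the CCAAT box at -193, TGACG at -17 and the GC box at 3 places, the Ythdf2 window held the GC box at -106, and the Igf2bp2 window held it at -133 and -54, counted from the base before the start as -1. Windows not printed varied. That of Igf2bp3, which also rose in RNA of both knockouts, held the E-box at -23 and the CCAAT box at -118 and no GC box. The window of Ythdc1, not called in RNA, held 4 GC boxes and TGACG. That of Prrc2a held only the GC box, like that of Igf2bp2, at -96 and -27. Those of Hnrnpa2b1 held TGACG and the CCAAT box. Of 32851 RefSeq windows of this length, 32.7% held the GC box, 33.8% the CCAAT box, 17.8% TGACG, 12.4% the TATA box, 6.91% the Ets motif, 6.02% the E-box, 1.55% TGACGTCA and 0.782% the NRF1 palindrome. The G and C content was 68.4% for Ythdf1, 64.0% for Ythdf2 and 77.2% for Igf2bp2. These matches are letters in a window and say nothing about which factors bind.

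Ythdf3, the third cytoplasmic paralog, had a different pattern. Its RNA level was 20.3, 18.9 and 18.1 FPKM in Ctrl, 22.6, 23.6 and 24.5 for F-cKO, and 21.0, 22.4 and 18.9 for M-cKO. The F-cKO libraries lay above Ctrl, with a log2 rise of 0.29 ± 0.06 (SE, edgeR adjusted p = 0.0125), while the M-cKO libraries overlapped Ctrl (0.11, 95% interval -0.05 to 0.27). Without Ctrl replicate 3 the F-cKO estimate was 0.25 with an edgeR adjusted p of 0.0513. Ythdf3 footprints in M-cKO were 29.5, 24.9 and 36.9 RPKM against 38.8, 38.7 and 33.0 in Ctrl. These groups overlapped, and the estimate of -0.27 had a 95% interval of -0.59 to 0.05. Without M-cKO replicate 3 the estimate was -0.41 and was called lower (edgeR adjusted p = 0.0488).

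The 2 Ythdc genes differed in Ribo-seq. Ythdc1 (chr5:86803980-86836659) had 10.6, 11.8 and 12.7 RPKM in Ctrl and 17.2, 14.4 and 17.7 in M-cKO. The groups did not overlap, and footprints rose by 0.50 ± 0.10 (log2, SE, edgeR adjusted p = 0.0225). Its RNA differed less: 9.15, 9.15 and 9.02 FPKM in Ctrl compared with 9.86, 10.8 and 9.74 for M-cKO and 9.77, 10.5 and 10.03 for F-cKO. Both knockout groups lay above Ctrl without passing the test (log2 0.14 in each, edgeR adjusted p = 0.097 in M-cKO and 0.0983 in F-cKO). Ythdc2, known for its role in meiotic germ cells, had 3.06, 2.97 and 3.35 FPKM in Ctrl, 3.56, 3.32 and 3.67 for F-cKO, and 3.02, 3.21 and 2.72 for M-cKO. No comparison of Ythdc2 with Ctrl passed the test, and its footprints in M-cKO (7.45, 4.43 and 6.85 RPKM) overlapped Ctrl (6.94, 7.51 and 8.67).

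Among the Igf2bp genes, Igf2bp2 (chr16:22059009-22163299) changed most in RNA. Its level was 5.11, 5.85 and 3.99 FPKM in Ctrl, 8.08, 8.68 and 9.68 for F-cKO, and 7.76, 8.13 and 7.04 for M-cKO. Every knockout library exceeded every Ctrl library. The log2 fold change was 0.81 ± 0.13 in F-cKO (SE, edgeR adjusted p = 0.00443) and 0.61 ± 0.12 in M-cKO (adjusted p = 0.00317), and both calls held whichever library was left out. The same Ctrl libraries serve both comparisons, so these rises, like those of Igf2bp3, are not independent. Between the knockouts Igf2bp2 RNA was not called (-0.22 for M-cKO against F-cKO, edgeR adjusted p = 0.0876). Footprints were 3.46, 3.56 and 4.06 RPKM in Ctrl and 6.74, 6.23 and 4.94 in M-cKO, a rise of 0.71 ± 0.15 (log2, SE, edgeR adjusted p = 0.025). In F-cKO they were 6.77, 7.70 and 3.04 RPKM, so that replicates 1 and 2 lay above all Ctrl libraries and replicate 3 below them.

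Igf2bp1 (chr11:95957163-96005944) showed the same split among the F-cKO Ribo-seq libraries. Its footprints were 2.85, 3.35 and 2.90 RPKM in Ctrl, 6.95, 6.41 and 2.60 for F-cKO, and 5.12, 5.41 and 4.38 for M-cKO. All M-cKO libraries were above Ctrl, with a log2 rise of 0.73 ± 0.14 (SE, edgeR adjusted p = 0.0184), whereas the F-cKO estimate of 0.87 had a 95% interval of -0.05 to 1.78. In RNA the groups overlapped: 5.70, 6.27 and 4.20 FPKM in Ctrl, 6.10, 7.24 and 7.34 for F-cKO, and 5.81, 6.36 and 6.38 for M-cKO. Ctrl replicate 3 was the lowest RNA-seq library for Igf2bp1 and Igf2bp2, and also for Igf2bp3, Prrc2a, Ythdc1, Ythdf1, Ythdf2 and Ythdf3. Hbb-y footprint counts in F-cKO, 176, 149 and 27, were also lowest in replicate 3, and their part in the split was not tested. The RNA estimates of Igf2bp1 were 0.34 ± 0.13 (SE, edgeR adjusted p = 0.0968) in F-cKO and 0.19 ± 0.12 (adjusted p = 0.274) in M-cKO. The F-cKO estimate was called by DESeq2 (adjusted p = 0.0409), and by edgeR without the filter on low counts or without Ctrl replicate 2.

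Igf2bp3 (chr6:49085218-49215469) had 3.35, 3.00 and 2.76 FPKM in Ctrl, 4.19, 4.66 and 5.16 for F-cKO, and 3.73, 3.86 and 3.74 for M-cKO. The 3 groups did not overlap, and F-cKO was highest. The log2 rise was 0.61 ± 0.10 in F-cKO (SE, edgeR adjusted p = 0.00536) and 0.30 ± 0.09 in M-cKO (adjusted p = 0.0242). The M-cKO call was lost without M-cKO replicate 1 or 2 or Ctrl replicate 2 or 3, with adjusted p between 0.0517 and 0.0745. Footprints of Igf2bp3 were 5.89, 6.31 and 6.68 RPKM in Ctrl, 9.22, 8.10 and 5.49 for F-cKO, and 7.92, 6.55 and 6.98 for M-cKO. Again F-cKO replicate 3 lay below all Ctrl libraries. In the annotation Igf2bp3 overlaps Malsu1, the pseudogene Gm18010 and the long noncoding RNA D030074P21Rik. Whether counting used strand is not stated, so part of its count could belong to these. Igf2bp1 overlaps the microRNA gene Mir3063 and Prrc2a the small nucleolar RNA gene Gm23442, so the same limit applies to their counts.

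**Figure D3:**
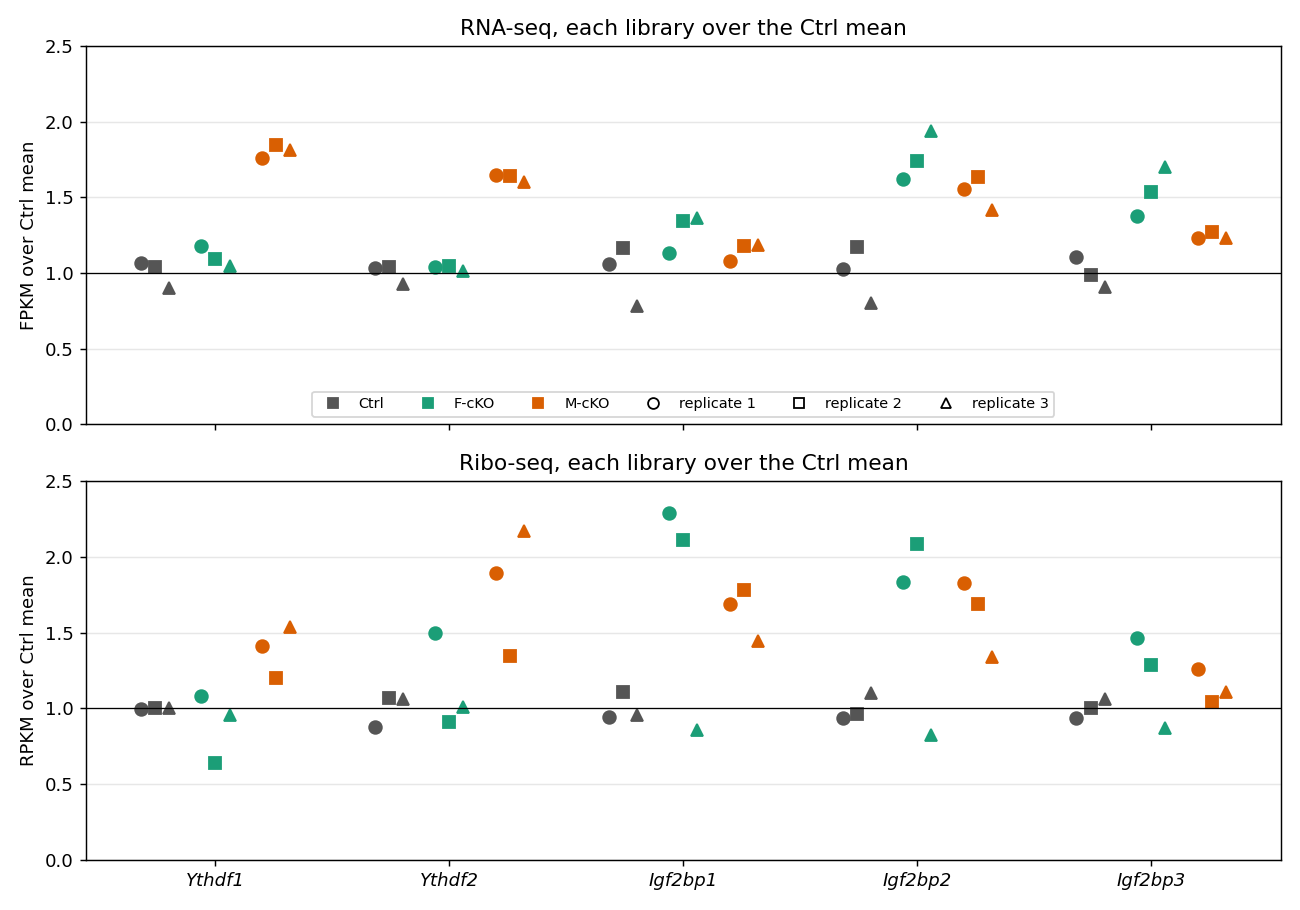
FPKM (RNA-seq, above) and RPKM (Ribo-seq, below) of Ythdf1, Ythdf2 and the 3 Igf2bp genes in each library, divided by the mean of the Ctrl libraries of that assay. In RNA-seq the M-cKO libraries of Ythdf1 and Ythdf2 lie at 1.60 to 1.84 times the Ctrl mean, and in Ribo-seq F-cKO replicates 1 and 2 lie at 2.29 and 2.11 times for Igf2bp1 while replicate 3 lies at 0.858.

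Of the 2 most abundant readers, Hnrnpa2b1 fell in RNA of M-cKO and Prrc2a rose in RNA of F-cKO. Hnrnpa2b1 (chr6:51460434-51470048) had 232, 226 and 231 FPKM in Ctrl, 243, 258 and 261 for F-cKO, and 204, 202 and 194 for M-cKO. The M-cKO libraries lay below Ctrl, and its RNA fell by 0.21 on the log2 scale (SE 0.05, edgeR adjusted p = 0.0134). The F-cKO libraries lay above Ctrl without passing the test (0.14, adjusted p = 0.121). Footprints of Hnrnpa2b1 in M-cKO, at 299, 258 and 295 RPKM against 291, 295 and 331 in Ctrl, overlapped. Prrc2a (chr17:35149076-35165321) had 93.5, 100.4 and 88.5 FPKM in Ctrl, 123, 120.0 and 109 for F-cKO, and 112, 99.0 and 116 for M-cKO. The F-cKO libraries lay above Ctrl, while the M-cKO libraries overlapped it. Prrc2a rose in F-cKO by 0.31 ± 0.07 (log2, SE, edgeR adjusted p = 0.0156), a call lost without Ctrl replicate 3 or F-cKO replicate 2, and in M-cKO the estimate was 0.20 (adjusted p = 0.0561). DESeq2 called Prrc2a higher in M-cKO in RNA (adjusted p = 0.0212) and in Ribo-seq (adjusted p = 0.0375). The RNA was called by edgeR without the filter on low counts or without M-cKO replicate 2 or Ctrl replicate 2. In Ribo-seq of M-cKO edgeR did not call Prrc2a with all libraries, but did without M-cKO replicate 3 (0.47, adjusted p = 0.0487). Prrc2a footprints were 54.7, 52.0 and 43.2 RPKM in Ctrl, 64.8, 57.5 and 49.3 for F-cKO, and 67.4, 68.4 and 55.4 for M-cKO.

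Both knockouts were also compared with each other, which uses no Ctrl library. In RNA-seq 2 of 10 readers were higher in M-cKO (Ythdf1 and Ythdf2) and 2 were lower (Hnrnpa2b1 and Igf2bp3), where 13.1% of 16802 genes were higher and 14.3% lower. Ythdf1 differed by 0.70 ± 0.06 (log2, SE, edgeR adjusted p = 9.47e-05) and Ythdf2 by 0.65 ± 0.06 (adjusted p = 8.16e-05). The difference was -0.35 ± 0.06 for Hnrnpa2b1 (adjusted p = 0.00302) and -0.32 ± 0.09 for Igf2bp3 (adjusted p = 0.0271). The Ythdf1, Ythdf2 and Hnrnpa2b1 differences were called whichever library was left out, but in 5 of these 6 fits the Igf2bp3 difference was not called (all but the fit without F-cKO replicate 1). In Ribo-seq edgeR called 0 readers and 0% of 14262 genes in either direction, with 2 readers (Ythdf1 and Ythdf2, both higher in M-cKO) at an unadjusted p under 0.05 and 0 by DESeq2.

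Changes in TE, the Ribo-seq change beyond the RNA-seq change in a single model of both assays, passed the edgeR test for 0 of the 10 readers in the fits of the 3 comparisons, and Ythdc1 was called in some alternatives. In M-cKO against Ctrl edgeR called 0 of 10, where 1.89% of 13208 genes rose and 1.18% fell, with 3 readers at an unadjusted p under 0.05 and 1 by DESeq2. Those 3 were Ythdc1 (0.43 ± 0.11, SE, edgeR adjusted p = 0.0583), Igf2bp1 (0.61 ± 0.19, adjusted p = 0.0967) and Ythdf1 (-0.29 ± 0.11, adjusted p = 0.161). Ythdc1 was the reader that DESeq2 called, at 0.40 with an adjusted p of 0.0292. With 1 library left out, edgeR called Ythdc1 without Ribo-seq M-cKO replicate 2 or Ctrl replicate 3, and Igf2bp1 without Ribo-seq M-cKO replicate 3. Mettl3 fell by 0.99 in the same test (SE 0.13, edgeR adjusted p = 0.00512). In F-cKO against Ctrl edgeR called 0 of 10 readers and 0% of 13225 genes, with 1 reader (Ythdf3, -0.44 ± 0.15) at an unadjusted p under 0.05 and 0 by DESeq2. In M-cKO against F-cKO the counts were 0 of 10 readers and 0% of 13162 genes in edgeR, with 1 reader (Ythdc1, 0.36 ± 0.15) at an unadjusted p under 0.05 and 0 by DESeq2.

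The make-up of each paralog family was also computed, as the share of each gene in the summed FPKM or RPKM of its family. The Ythdf sum was 62.3 ± 4.28 FPKM in Ctrl, 69.8 ± 0.76 for F-cKO and 94.9 ± 2.62 for M-cKO (SD, n = 3). Within it the Ythdf3 share was 30.7% ± 0.94 in Ctrl, 33.8% ± 1.70 for F-cKO and 21.9% ± 1.33 for M-cKO. In Ribo-seq the Ythdf3 share was 35.5% ± 3.17 in Ctrl and 21.6% ± 1.05 in M-cKO, while the Ythdf2 share was 39.8% ± 3.45 and 52.8% ± 2.49. The Ctrl and M-cKO libraries did not overlap in any of these shares. The Igf2bp sum was 13.4 ± 2.19 FPKM in Ctrl, 20.4 ± 1.91 for F-cKO and 17.6 ± 0.65 for M-cKO, and 13.02 ± 0.74, 18.8 ± 6.62 and 18.1 ± 1.75 RPKM in Ribo-seq. Igf2bp3 supplied 22.9% ± 2.76 of the RNA but 48.3% ± 0.64 of the footprints of this family in Ctrl. In M-cKO its share of footprints was 39.6% ± 3.43, below all Ctrl libraries. These shares are given without a test.

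**Figure D4:**
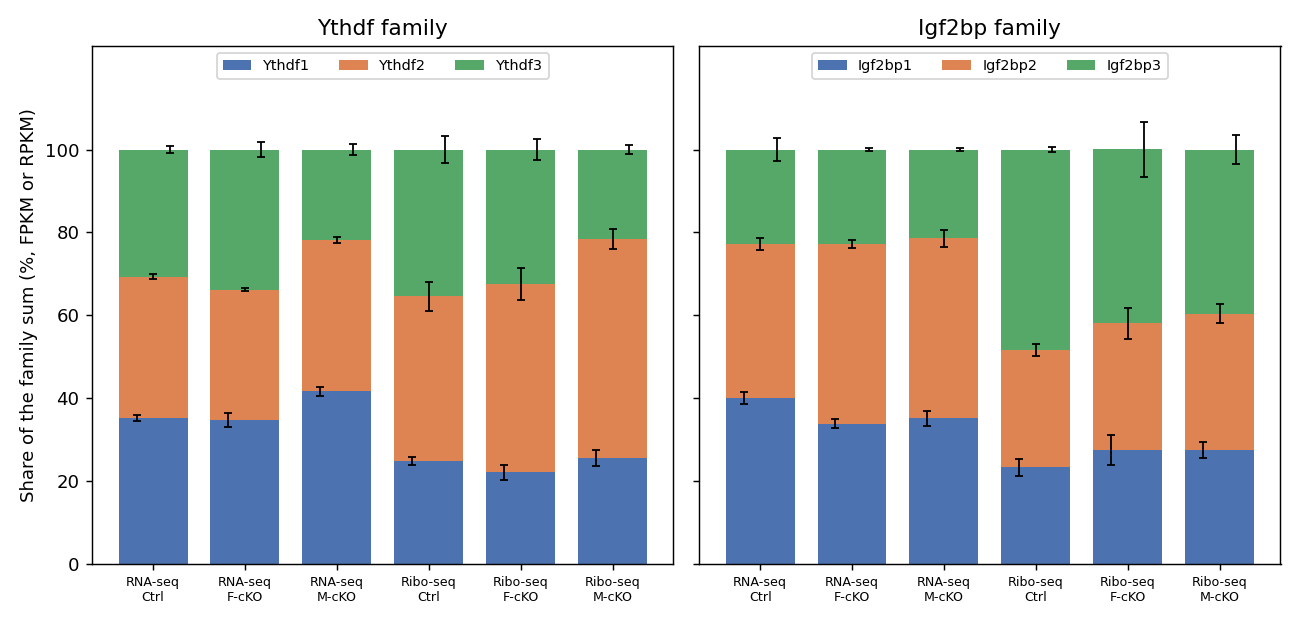
Share of each paralog (%) in the summed level of the Ythdf family and the Igf2bp family, by assay and group, from FPKM in RNA-seq and RPKM in Ribo-seq. Bars stack the mean shares to 100% and error bars give the SD of each share (n = 3). The Ythdf3 segment is 30.7% of the RNA in Ctrl and 21.9% in M-cKO, and the Igf2bp3 segment is 22.9% of the RNA and 48.3% of the footprints in Ctrl.

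Other genes of the m6A pathway were counted from fixed lists. Of the 9 writers, 7 rose in RNA of M-cKO (Mettl3 itself among them), where 15.5% of all genes rose. Those with the smallest p were Rbm15 (1.37 ± 0.10, log2, SE), Rbm15b (0.80 ± 0.06) and Mettl16 (0.38 ± 0.07). In RNA of F-cKO, where 11.5% of all genes rose, 3 writers rose, Virma (0.41 ± 0.06), Rbm15 (0.46 ± 0.10) and Zc3h13 (0.22 ± 0.06). Rbm15 and Rbm15b help place the methyltransferase on its targets. The median of the writers was 0.38 in M-cKO and 0.18 in F-cKO. In Ribo-seq of M-cKO, where 7.13% of all genes rose, 4 writers rose, and Mettl3 fell by 0.55 (SE 0.10). The smallest p among those 4 belonged to Rbm15b (0.79 ± 0.10), Rbm15 (1.02 ± 0.13) and Zc3h13 (0.40 ± 0.09). The other eraser, Alkbh5, rose in RNA of F-cKO (0.31 ± 0.08) and M-cKO (0.39 ± 0.07), and Fto rose in RNA of M-cKO (0.36 ± 0.10) and fell by 1.21 in F-cKO (SE 0.33).

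Of 10 partners of the readers tested, 3 rose in RNA of F-cKO, namely Cnot1 (0.42 ± 0.05), the scaffold of the deadenylase that Ythdf2 recruits, Srsf10 (0.29 ± 0.06), a splicing factor, and Xrn1 (0.32 ± 0.08), a 5′ to 3′ exonuclease. In M-cKO 1 fell in RNA, Matr3 (-0.31 ± 0.09), and 1 fell in Ribo-seq, Srsf10 (-0.41 ± 0.10), near the 14.1% and 7.5% of all genes that fell there. Of 10 other RNA-binding proteins tied to m6A, 4 rose in RNA of F-cKO, of which Eif3a (0.25 ± 0.06), G3bp1 (0.24 ± 0.06) and Rbmx (0.26 ± 0.07) had the smallest p. In RNA of M-cKO 1 of the 10 rose (G3bp1, 0.24 ± 0.06) and 2 fell, Rbmx (-0.60 ± 0.07) and Fmr1 (-0.30 ± 0.07). Rbmx, an hnRNP that binds RNA opened by m6A, also fell in Ribo-seq of M-cKO (-0.94 ± 0.17), and Eif3a rose in TE (0.42 ± 0.10). Over all genes 11.5% rose in RNA of F-cKO, and 15.5% rose and 14.1% fell in RNA of M-cKO, so 1 of 10 higher and 2 of 10 lower in M-cKO are near those shares.

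Of 5 close relatives of the readers tested, Prrc2c (0.55 ± 0.06) and Prrc2b (0.41 ± 0.09) rose in RNA of F-cKO, and Hnrnpa0 (0.59 ± 0.08), Prrc2b (0.34 ± 0.07) and Prrc2c (0.21 ± 0.06) rose in RNA of M-cKO. These counts stand beside 11.5% of all genes higher for F-cKO and 15.5% for M-cKO. In Ribo-seq of M-cKO, where 7.13% rose and 7.5% fell, Prrc2b rose (0.46 ± 0.11) and Hnrnpa1 fell (-0.60 ± 0.15). Among 7 tested fetal growth genes tied to the Igf2bp family and Lin28, the chromatin protein gene Hmga2 rose by 2.13 ± 0.27 for F-cKO and 1.69 ± 0.23 for M-cKO (RNA, log2, SE). Lin28b, which blocks let-7 maturation, rose by 0.74 ± 0.18 for F-cKO and 0.87 ± 0.24 for M-cKO, and Myc fell in F-cKO (-0.39 ± 0.11). In Ribo-seq 5 of these genes were tested in M-cKO, without Hmga2, and edgeR called 0 of them, with a median of 0.09. Lin28b among them had 1.52 ± 0.42 (log2, SE, edgeR adjusted p = 0.0515). The shares over all genes given above for each comparison are the background of these counts, 2 higher and 1 lower of 7 in F-cKO and 2 higher of 7 in M-cKO.

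Likeness between genes was measured over all 18 libraries as the Pearson correlation of log2 CPM (counts scaled to library size) after the mean of each assay was subtracted, with 13264 genes. The libraries share groups and depth, so these values are a description. Among readers the most alike pairs were Igf2bp1 with Igf2bp2 (0.91), Igf2bp2 with Igf2bp3 (0.91), Ythdf1 with Ythdf2 (0.89) and Igf2bp1 with Igf2bp3 (0.80). Ythdf3 was unlike both its paralogs (-0.05 with Ythdf1 and -0.17 with Ythdf2), and the lowest value was that of Ythdf1 with Hnrnpa2b1 (-0.53). For 9 of the readers, the most alike gene was 1700017B05Rik for Ythdf1 (0.98), Timm17a for Ythdf2 (0.95), Pank3 for Ythdf3 (0.89), Zfp281 for Ythdc1 (0.92), Cnot2 for Ythdc2 (0.96), Dcaf8 for Igf2bp1 (0.96), Phf21b for Igf2bp2 (0.98), Hnrnph1 for Hnrnpa2b1 (0.94) and Rmi2 for Prrc2a (0.91).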

How the data were processed

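RNA-seq and Ribo-seq of E15.5 cortices were analysed in 18 libraries, 3 per group and assay, grouped by their labels. The submitters' processing notes name HISAT2 2.0.5, TopHat2, HTSeq, DESeq2 1.14.1 and the build mm10. Read counts per gene were deposited by the authors for both assays, and so were the FPKM of RNA-seq and the RPKM of Ribo-seq, which were used as deposited. Whether counting used strand is not given in the sources used here. Of the Ribo-seq table, the 14348 genes with a count in all 9 libraries were used. Gene names and promoter windows came from RefSeq GRCm38.p6.

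Counts were tested in R 4.3.3 with edgeR 4.0.16: filterByExpr (minimum count 10, minimum total count 15), TMM scaling and the quasi-likelihood test over the libraries of each comparison, with Benjamini-Hochberg adjustment over all genes tested and a threshold of 0.05. TE was tested as an assay-by-genotype interaction over 12 libraries, for genes that passed the filter in both assays. SE is the size of the log2 fold change divided by the square root of the F statistic. Same-numbered RNA-seq and Ribo-seq libraries deviated together in Ctrl (r from 0.11 to 0.266) and M-cKO (0.104 to 0.329) but not in F-cKO (-0.276 to -0.0185), so for TE of M-cKO against Ctrl they were also fitted as pairs. Alternatives were DESeq2 1.42.0, RLE scaling, no filter, a joint fit over all libraries, a block for replicate number and each library left out, and, after the data were seen, the pairs. The reader genes and the lists were chosen with earlier results of these data known. Named are all 10 readers, Mettl3, Fto, and from each list at most 3 genes called in a comparison with Ctrl, by smallest p. P-values measure the spread between libraries, which the labels call biological repeats. The knockouts are separate mouse lines, so line, and litter or exact stage where these differed between groups, cannot be told apart from genotype. Depth was lowest in Ribo-seq F-cKO replicate 2. The biological coefficient of variation was 0.379 in Ribo-seq and 0.103 in RNA-seq of F-cKO against Ctrl. The gene most like Igf2bp3 is not reported here.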

Additional observations from a re-analysis of the deposited data

Results flagged for a closer look

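4 readers differed in RNA between the knockouts by the comparison of M-cKO against F-cKO (edgeR, 3 against 3 libraries). Ythdf1 (log2 difference 0.70) and Ythdf2 (0.65) were higher in all 3 M-cKO libraries than in any F-cKO library. Hnrnpa2b1 (-0.35) and Igf2bp3 (-0.32) were lower in all 3 M-cKO libraries than in any F-cKO library, a separation that 43.7% of all genes showed. Igf2bp3 nevertheless rose against Ctrl in both knockouts, while Hnrnpa2b1 fell against Ctrl in M-cKO alone, with an F-cKO estimate of 0.14 that did not pass the test. With 1 library left out, the Igf2bp3 difference was not called in 5 of 6 fits.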

How the results depend on the processing

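The count of readers called was within 1.5 times the value given above in 110 of 120 alternative fits, but 76 of these fits belong to comparisons with 0 readers called; of the other 44, 6 moved further, 5 of them in Ribo-seq of M-cKO against Ctrl, and no called log2 fold change of a reader reversed. Of 1200 alternative log2 fold changes, 37 lost and 17 gained a call, and 42 that were called in neither fit changed sign. Leaving out 1 library at a time gave 2 to 5 readers called in RNA-seq of F-cKO against Ctrl (2 without Ctrl replicate 3), 0 to 7 in Ribo-seq of M-cKO against Ctrl, and 0 to 1 in TE of M-cKO against Ctrl. All libraries in a single fit gave 0 in Ribo-seq of M-cKO against Ctrl, and DESeq2 gave 1 in TE of M-cKO against Ctrl. The replicate block left 4 readers called in RNA-seq of F-cKO against Ctrl, 5 in M-cKO against Ctrl, 4 in Ribo-seq of M-cKO against Ctrl (Igf2bp2 lost, edgeR adjusted p = 0.0549) and 0 in TE. Within an assay same-numbered libraries of different groups did not deviate together throughout (r from -0.28 to 0.18), so the numbers were not taken to pair them. Pairing the assays within genotype, an alternative chosen after seeing the data, also called 0 readers in TE of M-cKO against Ctrl.

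Over all genes, the block called 2130 instead of 3576 in RNA-seq of F-cKO and 1319 instead of 2093 in Ribo-seq of M-cKO. A single fit called 35 in Ribo-seq and 11 instead of 405 in TE of M-cKO, and, where edgeR called 0, it called 1 in Ribo-seq of F-cKO and, for M-cKO against F-cKO, 25 in Ribo-seq and 5 in TE (RLE scaling, 1). DESeq2 called 1037 in TE of M-cKO, 6 in Ribo-seq and 44 in TE of F-cKO, and 206 in Ribo-seq and 18 in TE of M-cKO against F-cKO, where edgeR called 0. Leaving out 1 library moved these counts to between 1543 and 3474 in RNA-seq of F-cKO (lowest without Ctrl replicate 3), 177 and 2547 in Ribo-seq of M-cKO (lowest without Ctrl replicate 2), 65 and 1054 in TE of M-cKO (without RNA-seq M-cKO replicate 1 and Ribo-seq M-cKO replicate 3), and from 4599 to between 2767 and 4566 in RNA-seq of M-cKO against F-cKO (lowest without F-cKO replicate 2). Shares of a paralog changed by more than their SD in 29 of 36 cases with CPM, which are not divided by gene length. The 60 Ctrl levels with 1 library left out stayed within 1 SD, and 2 of 30 TE ratios moved further when medians were used.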
